A study of Homo sapiens with 4 samples.

Results

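Cluster 1 is 1 of the 8 cell clusters in the authors' deposited cell annotation, and its members were taken as every cell carrying that cluster number in either treatment. It held 1504 of the 8307 cells. Of these, 904 came from the 3367 cells given estradiol (E2) and 600 from the 4940 cells given vehicle. The cells were MDA MB 134VI (MM134), an established human line of lobular breast carcinoma, listed with the genotype WT. All cells were first deprived of hormone in phenol red-free IMEM with 10% charcoal-stripped serum, and were then exposed for 24 hours to 100 nM E2 or to 0.01% ethanol as vehicle. Each treatment gave 1 targeted mRNA library, captured with a pan-cancer gene panel, and 1 single-cell DNA repair library (Haircut), in which synthetic hairpins carrying a DNA lesion are exposed to the contents of each cell and the position of the break is counted. With 1 library per treatment, no difference could be tested over replicates, so no p-value is given here and all intervals are 95% intervals that cover counting error only.

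A cell enters S phase when cyclin E with its kinase releases the E2F transcription factors from the retinoblastoma protein. E2F factors then induce the genes that load the MCM helicase on origins, supply nucleotides and build the replication fork. In breast cells that carry the estrogen receptor, estradiol is known to drive quiescent cells through this step, and the same enzymes that copy DNA also take part in excision repair.

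The deposited matrix held 3 blocks of values per cell, here called all-gene rows (33538 genes), panel rows (1253 genes) and repair rows (549 rows, 61 positions in each of 9 hairpins). Counts of unique molecules (UMIs) were recovered from them, summed over cells, and are given as counts scaled to the UMI total of the block (CPM, the usual unit of expression). Median all-gene UMIs per cell were 1212 with E2 and 1100 with vehicle in cluster 1, against 1778 and 1229 in all other cells. Median panel UMIs per cell were 2114 and 2182 in cluster 1, against 3050 and 2491 in other cells. Median mitochondrial percentages lay between 7.55 and 7.67 in all 4 sets of cells. The libraries shared 4 cell barcodes, 0 of them in cluster 1. The 12 immune or endothelial markers had 0 UMIs in cluster 1 in both treatments, and 6 of 9 basal markers, among them KRT5, KRT14 and ACTA2, were also at 0. Of 11 mesenchymal markers, 6 were at 0, and the list summed to 200 CPM with E2 and 214 CPM with vehicle in cluster 1, against 195 and 258 CPM in other cells. Luminal genes summed to 10678 and 9144 CPM in cluster 1, against 10156 and 9366 CPM in other cells.

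Cluster 1 took a larger share of the E2 cells. It held 26.8% (25.4 to 28.4) of E2 cells and 12.1% (11.3 to 13.1) of vehicle cells. Among the other clusters, cluster 3 held 19.3% of E2 cells and 8.52% of vehicle cells, whereas cluster 2 held 2.44% and 23.3% and cluster 6 held 2.35% and 12.7%. With E2, cluster 1 was the largest of the 8 clusters, though cluster 0 was close at 25.6%. The genes that were used to make the clusters are not given in the sources used here, so genes that respond to E2 may themselves have placed cells in or out of cluster 1, and their part in these shares was not tested.

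**Figure D1:**
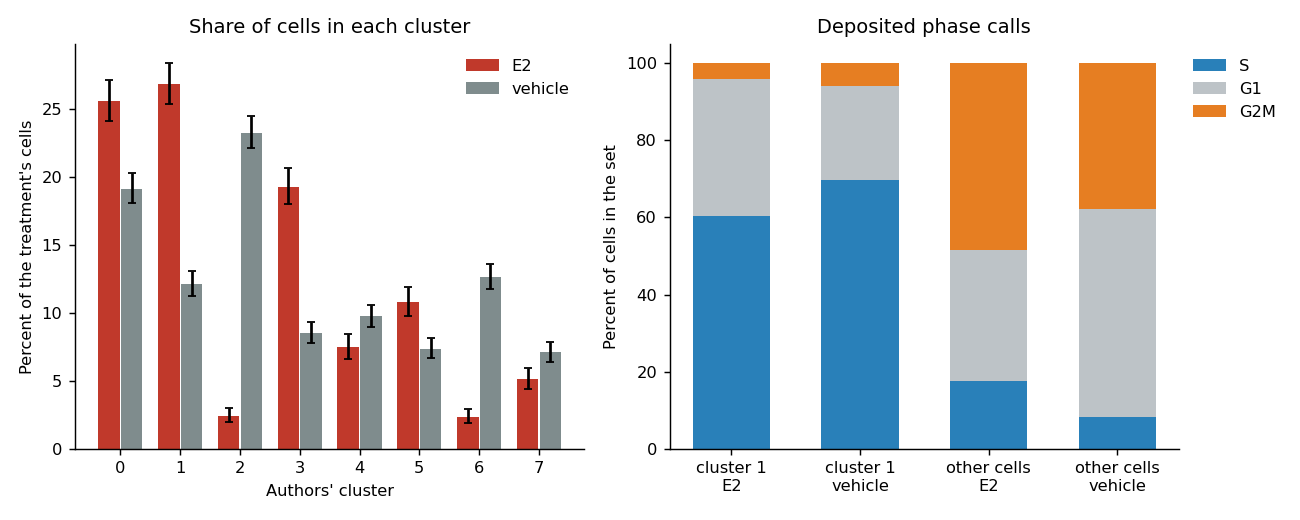
Left, percent of each treatment's cells in each of the authors' 8 clusters, with exact binomial 95% intervals of the cell counts; right, percent of cells in each deposited cell cycle phase for cluster 1 and for all other cells in each treatment. Cluster 1 held 26.8% of E2 cells and 12.1% of vehicle cells, and S was its most frequent phase in both.

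The name of S-phase-rich cells describes the deposited phase calls of the cluster as a whole, but not of each cell in it. How these calls were made is not given, so the S phase list used below may itself have entered them. In the deposited phase calls, 545 of the 904 E2 cells of cluster 1 were S (60.3%, 57.0 to 63.5), and 419 of the 600 vehicle cells (69.8%, 66.0 to 73.5). Other cells were S in 17.5% with E2 and 8.16% with vehicle. A further 35.6% of the E2 cells and 24.3% of the vehicle cells of cluster 1 were called G1, and 4.09% and 5.83% were called G2M. Cluster 1 did not hold all S cells either. It contained 55.8% of the 977 S cells with E2 and 54.2% of the 773 S cells with vehicle, while cluster 0 held 18.0% and 20.4% of them and cluster 3 held 22.7% and 12.03%. Of the cells called G1, cluster 1 held 27.7% of 1163 with E2 and 5.86% of 2493 with vehicle.

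The 43 genes of a standard S phase list made up 0.726% of the all-gene UMIs of cluster 1 with E2 and 0.803% with vehicle, the highest share among the 8 clusters in each treatment. Cluster 0 followed with 0.594% and 0.585%, then cluster 3 with 0.497% and 0.410%, and the remaining clusters lay between 0.186% and 0.278%. Genes of the G2/M list took 0.557% and 0.588% of the UMIs of cluster 1, against 1.32% and 1.34% in other cells. Within single phases the order was different. Among S cells, the S phase list reached 0.929% and 0.963% in cluster 1, against 0.975% and 1.06% in cluster 0 and 0.807% and 0.817% in cluster 3. Among G1 cells it reached 0.355% and 0.396% in cluster 1, against 0.236% and 0.184% in all other G1 cells. The G1 cells of cluster 0 were an exception, at 0.324% (0.253 to 0.409) over 14 cells with E2 and 0.423% (0.342 to 0.516) over 15 cells with vehicle, with intervals that overlap those of cluster 1.

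Genes that start and carry out DNA replication were the highest in cluster 1. Since a cluster is built from the genes of its own cells, these ratios describe the cluster and are no finding about it. Over all-gene rows with at least 200 UMIs in each treatment, 62 of 4676 genes were at least 1.5-fold higher in cluster 1 than in other cells in both treatments (1.33%) and 139 were at least 1.5-fold lower (2.97%). With a minimum of 50 UMIs, the threshold used for the gene lists below, 155 of 9124 genes were higher (1.7%) and 329 lower (3.61%). Over panel rows with at least 200 UMIs, 25 of 805 genes were higher (3.11%) and 31 lower (3.85%), and with at least 50 UMIs 27 of 884 were higher (3.05%) and 37 lower (4.19%).

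DTL, the substrate receptor of the ubiquitin ligase that destroys the licensing factor CDT1 on replicating DNA, led the all-gene rows. It stood at 143 CPM with E2 and 136 CPM with vehicle in cluster 1, against 52.4 and 28.6 CPM in other cells. Its log2 ratio was 1.45 (1.15 to 1.74) with E2 and 2.25 (1.87 to 2.62) with vehicle. The level inside cluster 1 was thus close between the treatments, and the larger vehicle ratio came with the lower level of other vehicle cells. The same held for MCM5, a subunit of the replicative helicase, at 133 and 120 CPM in cluster 1 against 51.6 and 32.0 CPM in other cells. UHRF1, which brings the maintenance DNA methyltransferase to newly copied DNA, stood at 238 and 212 CPM in cluster 1 against 101 and 58.9 CPM. CDC6, which loads the MCM helicase on origins, stood at 179 and 184 CPM against 80.4 and 48.0 CPM. FAM111B, a protease gene whose message is known to vary with the cell cycle, stood at 474 and 540 CPM against 199 and 137 CPM. MCM6 and MCM10, further helicase and initiation factors, had log2 ratios of 1.09 and 1.06 with E2 and of 1.58 and 1.83 with vehicle.

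The panel rows, which hold more UMIs per cell, were led by cyclin E, E2F1 and helicase genes. CCNE2, cyclin E2, stood at 961 CPM with E2 and 1158 CPM with vehicle in cluster 1, against 373 and 301 CPM in other cells, with log2 ratios of 1.37 (1.28 to 1.45) and 1.94 (1.86 to 2.03). Its 2 levels in cluster 1 exceeded those of every other cluster, of which the nearest were cluster 0 at 524 and 570 CPM and cluster 3 at 473 and 423 CPM. E2F1, the transcription factor at the head of the program, stood at 1212 and 1303 CPM against 626 and 377 CPM. MCM5 panel counts stood at 1481 and 1674 CPM against 637 and 463 CPM. CCNE1, cyclin E1, was lower in abundance on the panel and had log2 ratios of 0.97 and 1.72. PCNA, the sliding clamp of the fork, had log2 ratios of 0.85 and 1.61, and HELLS, a chromatin remodeler, of 0.96 and 1.60. PLAUR, the urokinase receptor and no replication gene, was also among the 12 highest, with log2 ratios of 0.82 and 0.97.

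**Figure D2:**
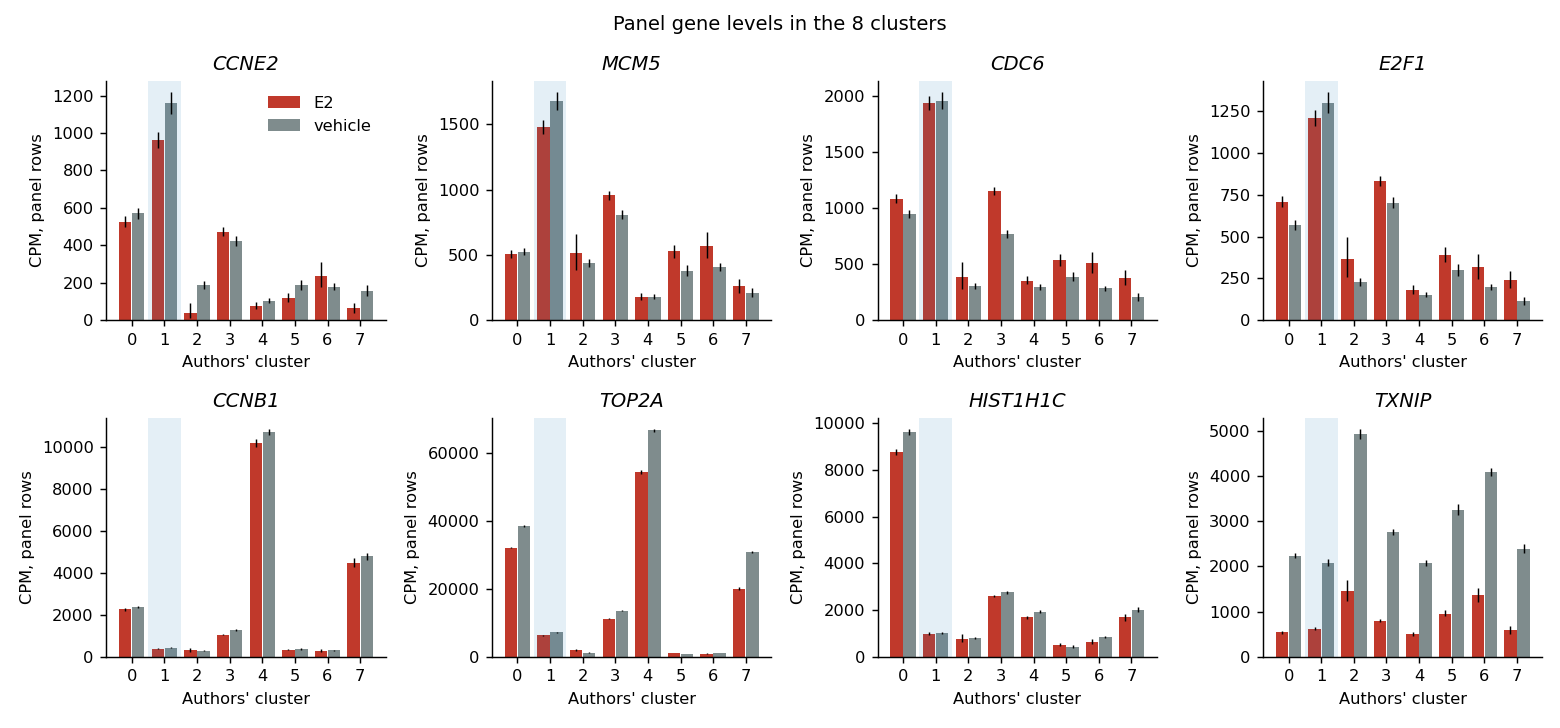
Panel CPM of 8 genes in each of the authors' clusters, with E2 (left bar of each pair) and vehicle (right bar); lines are exact Poisson 95% intervals and cluster 1 is shaded. CCNE2, MCM5, CDC6 and E2F1 were highest in cluster 1, CCNB1, TOP2A and HIST1H1C were low there, and TXNIP was lower with E2 in every cluster.

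To set single-cell detection on an equal footing, each cell was thinned to 1000 panel UMIs. A CCNE2 UMI was then found in 47.6% of E2 cells and 59.2% of vehicle cells of cluster 1, and in 24.3% and 20.2% of other cells. In cluster 4, which held mostly G2M cells and where little CCNE2 is expected, the shares were 5.95% and 8.92%. Without thinning, the shares were 62.7% and 76.3% in cluster 1 and 43.4% and 36.2% in other cells, at median panel depths of 2114, 2182, 3050 and 2491 UMIs. CENPA, the centromeric histone that is made in G2, was found in 1.77% and 1.34% of thinned cells of cluster 1, against 17.0% and 16.6% of other cells. Thinning left out 0 and 5 cells of cluster 1 and 12 and 73 other cells.

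Promoters of the leading genes are shown because many of them carry a word of the E2F site. Promoter sequence of 300 bases (250 before to 50 after the start) came from RefSeq for GRCh38.p14. The words TTTCCCGC, TTTCGCGC, TTTGCCGC and TTTGGCGC were searched on both strands, and words may overlap. Among all 27305 promoters of the table, 908 (3.33%) held at least 1 word. Of the 12 genes highest in cluster 1 over all-gene rows, 8 had a promoter in the table and 6 of these held a word (75%), and of the 12 highest over panel rows, 10 had a promoter and 7 held a word (70%). Of the 12 lowest genes, 0 of 11 promoters held a word in all-gene rows and 1 of 5 in panel rows (20%). In the S phase list, 16 of 32 promoters held one (50%), and in the G2/M list 3 of 47 (6.38%). The 5 examples below run 5′ to 3′ on the strand of the gene, with E2F words in capitals, at chr1:212035498-212035797 on the plus strand for DTL, chr17:40287629-40287928 on the plus strand for CDC6, chr2:135876394-135876693 on the minus strand for MCM6, chr3:127598161-127598460 on the plus strand for MCM2 and chr20:33686336-33686635 on the minus strand for E2F1. MCM6 held 4 words and MCM2 and E2F1 held 2 each, and those of MCM6 and of MCM2 overlapped. A match is a description of the letters and not of a bound site.
DTL: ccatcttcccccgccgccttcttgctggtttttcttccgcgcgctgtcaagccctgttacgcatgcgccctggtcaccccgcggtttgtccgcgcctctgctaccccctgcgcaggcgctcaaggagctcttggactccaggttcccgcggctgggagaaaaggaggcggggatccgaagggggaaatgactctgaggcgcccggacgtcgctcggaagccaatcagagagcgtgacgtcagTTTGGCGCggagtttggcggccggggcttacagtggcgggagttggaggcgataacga
CDC6: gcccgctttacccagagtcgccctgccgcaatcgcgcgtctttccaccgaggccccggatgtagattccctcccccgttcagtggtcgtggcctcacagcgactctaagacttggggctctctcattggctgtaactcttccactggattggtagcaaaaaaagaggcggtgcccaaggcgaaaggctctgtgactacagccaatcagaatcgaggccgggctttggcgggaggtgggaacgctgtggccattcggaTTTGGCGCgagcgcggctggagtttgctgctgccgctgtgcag
MCM6: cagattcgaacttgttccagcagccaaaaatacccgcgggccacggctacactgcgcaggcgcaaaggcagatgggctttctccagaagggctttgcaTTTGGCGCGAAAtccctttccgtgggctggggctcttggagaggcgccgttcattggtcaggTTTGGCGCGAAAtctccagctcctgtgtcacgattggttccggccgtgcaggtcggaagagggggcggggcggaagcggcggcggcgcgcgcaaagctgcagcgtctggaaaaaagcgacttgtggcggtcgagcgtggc
MCM2: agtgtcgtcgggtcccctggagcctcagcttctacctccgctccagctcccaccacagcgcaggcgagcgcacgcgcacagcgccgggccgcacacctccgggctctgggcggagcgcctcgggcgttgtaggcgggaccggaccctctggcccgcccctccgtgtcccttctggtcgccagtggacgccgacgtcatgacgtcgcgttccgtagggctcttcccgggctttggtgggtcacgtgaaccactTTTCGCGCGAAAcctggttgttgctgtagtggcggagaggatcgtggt
E2F1: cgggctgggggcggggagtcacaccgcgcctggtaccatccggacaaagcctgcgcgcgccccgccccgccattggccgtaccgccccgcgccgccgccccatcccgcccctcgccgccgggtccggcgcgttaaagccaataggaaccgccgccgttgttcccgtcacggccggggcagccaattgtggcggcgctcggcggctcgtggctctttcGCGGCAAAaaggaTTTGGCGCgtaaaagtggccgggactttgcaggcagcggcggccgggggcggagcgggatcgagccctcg

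The lists with the most genes higher in cluster 1 were those of S phase and of replication. Of 42 measured S phase genes, 28 were higher by 1.5-fold or more in both treatments and 0 were lower, with median log2 ratios of 0.78 with E2 and 1.30 with vehicle, against -0.01 and -0.03 over all genes. Of 42 genes of replication licensing and the fork, 26 were higher and 0 lower, with medians of 0.65 and 1.28. Many genes stand in both lists. CDC45, which joins the MCM helicase to form the moving fork, had log2 ratios of 1.25 and 1.93. Of 24 G1/S regulators, 7 were higher and 2 lower. Of 23 genes of nucleotide supply, 6 were higher and 0 lower. TK1, thymidine kinase, had log2 ratios of 0.92 and 1.95. DUT, which destroys dUTP and so keeps uracil out of DNA, had log2 ratios of 0.86 and 1.60, and CTPS1, a CTP synthase, of 0.80 and 1.56.

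Among repair genes, homologous recombination had the most members higher in cluster 1, 12 of 25 with 0 lower. RAD54L, a motor protein of recombination, had log2 ratios of 1.22 and 1.30, and EXO1, an exonuclease that resects ends, of 1.02 and 1.19. XRCC2, a further recombination factor, had log2 ratios of 1.10 and 1.35. In base excision repair 4 of 25 genes were higher and 0 lower, namely UNG, PCNA, LIG1 and FEN1. UNG, the glycosylase that removes uracil from DNA, stood at 79.3 CPM with E2 and 85.3 CPM with vehicle in cluster 1, against 31.1 and 20.9 CPM in other cells. Its log2 ratios were 1.35 (0.96 to 1.73) and 2.03 (1.56 to 2.48), and cluster 1 had the highest UNG level of the 8 clusters in each treatment. In mismatch repair 4 of 10 genes were higher, among them MSH6 with log2 ratios of 1.07 and 1.34.

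Of 22 damage signalling genes, 5 were higher and 1 lower. CLSPN, the adaptor that activates the checkpoint kinase CHEK1 at stalled forks, stood at 354 and 447 CPM in cluster 1 against 202 and 122 CPM in other cells, and CHEK1 itself had log2 ratios of 0.70 and 1.05. CDC25A, the phosphatase that switches on CDK2, had log2 ratios of 1.02 and 1.66. Of 13 Fanconi anaemia genes 1 was higher, FANCL, and of 7 ribonucleotide excision genes 1. End joining showed 0 higher and 1 lower of 12, and nucleotide excision repair 0 and 0 of 16. Over all genes 1.7% were higher and 3.61% lower. Counts of 0 or 1 in such short lists are therefore not read as results. Chromatin assembly was divided, with 8 of 27 genes higher and 8 lower. The higher members included UHRF1 and the lower ones included the linker histone genes HIST1H1B, HIST1H1D, HIST1H1C and HIST1H1E. Cytosolic ribosomal protein genes had medians of 0.05 and -0.01 and mitochondrially encoded genes medians of 0.03 and 0.00.

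**Figure D3:**
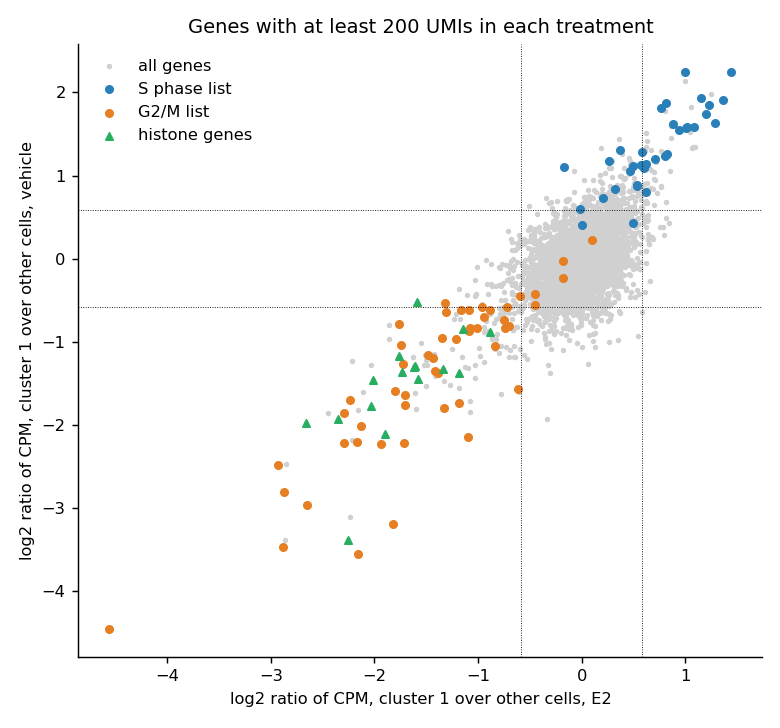
Each point is a gene with at least 200 all-gene UMIs in each treatment, placed by its log2 ratio of CPM in cluster 1 over other cells with E2 (x axis) and with vehicle (y axis); dotted lines mark 1.5-fold. S phase genes lie at the upper right, further from 0 with vehicle, and G2/M genes and histone genes lie at the lower left; PLK1, with 0 UMIs in the E2 cells of cluster 1, is drawn at the bound given by 3 UMIs.

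Mitotic genes were the lowest in cluster 1. PLK1, a kinase needed for entry into mitosis, had 0 UMIs in the E2 cells of cluster 1, against 61.6 CPM in other E2 cells, which makes it at least 23.6-fold lower against a floor of 3 UMIs over the set. With vehicle it had 2 UMIs in cluster 1 against 63.4 CPM in other cells, a log2 ratio with an interval of -7.51 to -2.59. DLGAP5, a spindle protein, stood at 21.8 and 15.9 CPM in cluster 1 against 161 and 177 CPM in other cells. CENPF, a kinetochore protein, stood at 298 and 318 CPM against 1344 and 1464 CPM. On the panel, CENPA stood at 19.95 and 26.7 CPM against 256 and 316 CPM, with log2 ratios of -3.68 (-4.17 to -3.23) and -3.56 (-4.07 to -3.10). CCNB1, the cyclin of mitotic entry, stood at 377 and 438 CPM against 2598 and 2934 CPM, and AURKA, a spindle pole kinase, at 156 and 188 CPM against 1169 and 1193 CPM. Of 56 measured G2/M genes, 47 were at least 1.5-fold lower in both treatments and 0 higher, with medians of -1.34 and -1.18. These ratios depend on which cells stand on the other side, since clusters 0 and 4 hold most G2M cells. Without both clusters the G2/M medians were -0.37 with E2 and 0.055 with vehicle.

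Histone genes were low in cluster 1 although S was its main phase. Replication-dependent histone messages are made in S phase, and most of them end in a stem-loop in place of a poly(A) tail. The histone genes were taken as all symbols that begin with HIST, a choice made after their values were seen, and reads of near-identical histone genes may be split between them. Of 37 measured all-gene rows, 36 were at least 1.5-fold lower in cluster 1 with E2 and 32 with vehicle, and 0 were higher, with medians of -1.59 and -1.31. On the panel, HIST1H1C stood at 996 and 1007 CPM in cluster 1, against 3965 and 3359 CPM in other cells. All histone rows together took 0.143% and 0.127% of the all-gene UMIs of cluster 1, against 0.465% and 0.334% in other cells. Among S cells alone the shares were 0.152% and 0.128% in cluster 1, against 0.907% and 0.881% in cluster 0 and 0.338% and 0.341% in cluster 3. Low shares were not particular to cluster 1. G1 cells had 0.104% and 0.099% in cluster 1, 0.083% and 0.093% in cluster 2, and 0.087% and 0.070% in cluster 5.

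The S cells of cluster 1 differed from the S cells of cluster 0 in histone and G2/M messages by more than in the S phase list. Between S cells of cluster 1 and of cluster 0, the S phase list had medians of 0.01 with E2 and -0.14 with vehicle and the G2/M list medians of -0.84 and -0.80. HIST1H1B, a linker histone gene, stood at 38.8 CPM in S cells of cluster 1 against 529 CPM in those of cluster 0 with E2, and at 34.8 against 564 CPM with vehicle. HIST1H4C, a core histone gene, stood at 579 against 3390 CPM with E2 and at 463 against 3182 CPM with vehicle. DTL ran the other way, with log2 ratios of 1.18 and 1.01 over S cells of cluster 0, and so did MCM5 on the panel, with 0.75 and 0.88. Against the S cells of cluster 3, the S phase list had medians of 0.21 and 0.24, HIST1H1B had log2 ratios of -2.58 and -2.36 and CCNE2 on the panel had 0.35 and 0.50. The S cells of cluster 1 thus had more message of DTL and MCM5 and less of histone and G2/M genes than S cells of cluster 0. Across all other S cells together, the S phase list medians were 0.15 and 0.13, and 0 genes were at least 1.5-fold higher in cluster 1 in both treatments while 9 were lower.

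G1 cells of cluster 1 carried more message of replication genes than G1 cells of clusters 2, 3 and 5. Against all other G1 cells, the S phase list had medians of 0.66 with E2 and 1.23 with vehicle. Against the G1 cells of cluster 2, CCNE2 on the panel stood at 431 CPM against 42.2 CPM with E2, the second from 4 UMIs, and at 664 against 168 CPM with vehicle. With vehicle FAM111B had a log2 ratio of 2.63 (2.05 to 3.22) there, and PCLAF, the PCNA-associated factor, of 2.83 (2.07 to 3.61). With E2, the 70 G1 cells of cluster 2 held 1 UMI of FAM111B and 2 of PCLAF, so the ratios of 3.79 (1.27 to 9.10) and 2.54 (0.64 to 5.61) were imprecise. TXNIP, a growth-restraining gene, was lower in G1 cells of cluster 1 than in those of cluster 2, with log2 ratios of -1.14 and -1.35. Against G1 cells of cluster 5, CCNE2 had log2 ratios of 2.14 and 1.91, while BEX1 had -1.97 and -2.13. Against G1 cells of cluster 3, CCNE2 had 1.41 and 1.55, while CDKN1A, the inhibitor of cyclin-dependent kinases known as p21, had -1.95 (-3.23 to -0.88) from 8 UMIs in cluster 1 with E2, and -0.91 (-2.04 to 0.07) from 10 UMIs with vehicle. The G2/M list had medians of -0.02 and 0.53 between G1 cells of cluster 1 and all other G1 cells, so its low level in the whole cluster was not found between G1 cells.

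Inside cluster 1, E2 and vehicle cells differed in estrogen-responsive genes and hardly in S phase genes. Over all-gene rows with at least 100 UMIs in the cluster, 124 of 3253 genes were at least 1.5-fold higher with E2 (3.81%) and 92 were lower (2.83%), and with at least 50 UMIs 293 of 5469 were higher (5.36%) and 288 lower (5.27%). Over panel rows, 12 of 785 genes with at least 100 UMIs were higher (1.53%) and 51 lower (6.5%), and with at least 50 UMIs 16 of 825 were higher (1.94%) and 59 lower (7.15%). The median over all measured genes was 0.01 in all-gene rows and -0.12 in panel rows. Of 42 S phase genes, 2 were lower with E2 by 1.5-fold or more and 0 were higher, and their median was -0.13. The same genes in other cells had a median of 0.44. On the panel, 0 of 13 S phase genes were above a ratio of 1 in cluster 1, where 257 of all 825 panel genes were, and their median was -0.18 in cluster 1 and 0.44 in other cells. Giving equal weight to the 3 phases turned the all-gene median to 0.048, and among S cells alone it was -0.08 in cluster 1 and -0.07 in other cells.

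CCNE2 shows this at the level of a gene. With E2 it was lower in cluster 1, at 961 CPM against 1158 CPM with vehicle on the panel, a log2 ratio of -0.27 (-0.37 to -0.17), while in other cells it was 0.31. CDC6 stood at 1938 CPM with E2 and 1956 CPM with vehicle in cluster 1, a log2 ratio of -0.01, against 0.78 in other cells, and the difference between the log2 ratios was -0.79 (-0.87 to -0.70). E2F1 had -0.10 in cluster 1 and 0.73 in other cells, a difference of -0.84 (-0.94 to -0.73). Over all phases together, replication genes in cluster 1 thus had an equal or slightly lower level with E2. Outside the cluster their average level was higher with E2. Of the replication licensing and fork list inside the cluster, 12 of 39 all-gene rows and 0 of 14 panel rows were above a ratio of 1. Over all genes these counts were 2825 of 5469 and 257 of 825. The list medians were -0.10 and -0.16, against 0.01 and -0.12 over all genes. Among S cells alone, the all-gene medians of this list were 0.002 in cluster 1 and 0.03 in other cells, so the contrast was not found there. Among G1 cells they were -0.18 and 0.48. The share of S cells was higher with E2 outside cluster 1, at 17.5% against 8.16%. Inside the cluster it was lower with E2, at 60.3% against 69.8%. The part of these shares in the difference was not tested.

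**Figure D4:**
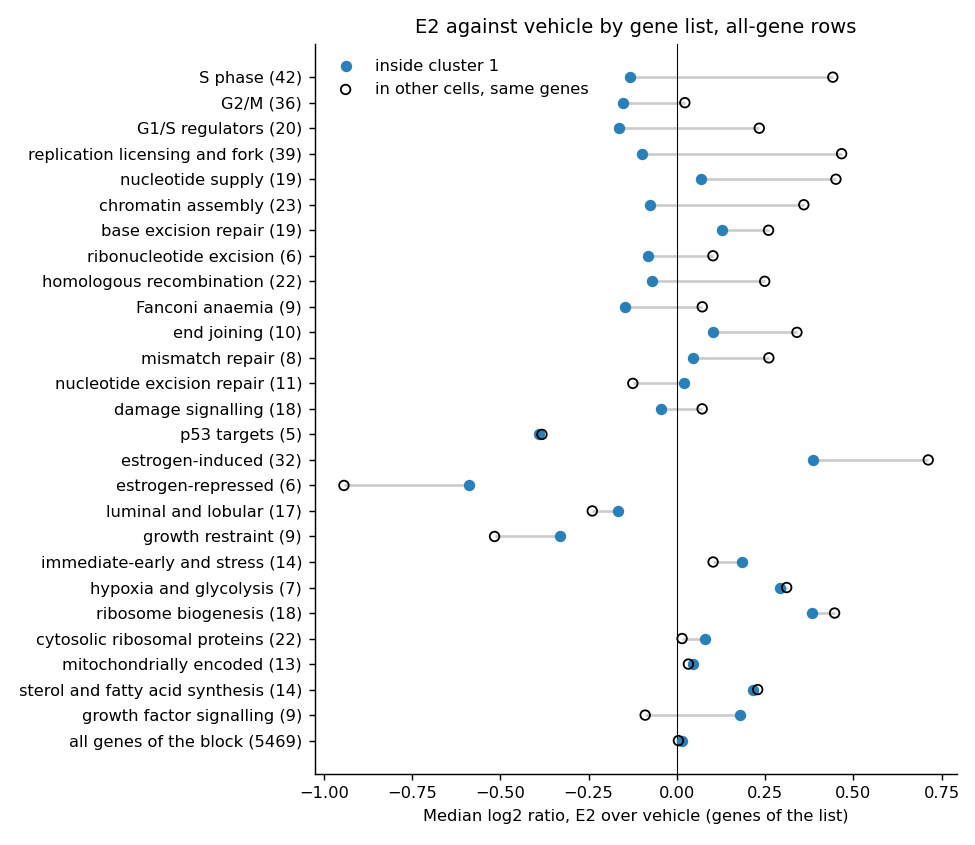
Median log2 ratio of E2 over vehicle for the genes of each list in all-gene rows, inside cluster 1 (filled) and for the same genes in other cells (open); the number of genes with at least 50 UMIs in cluster 1 is in brackets. S phase, replication, nucleotide supply and chromatin assembly lists lie near 0 inside cluster 1 and between 0.36 and 0.47 in other cells, while estrogen-induced genes lie above 0 and estrogen-repressed genes below 0 in both.

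Genes known to be induced by estrogen were higher with E2 inside cluster 1 as a list. Of 32 measured all-gene rows, 9 were higher with E2 by 1.5-fold or more and 1 was lower, where 5.36% and 5.27% of all genes were, and the median was 0.39 in cluster 1 and 0.71 in other cells. PGR, the progesterone receptor and a standard estrogen target, stood at 24.9 CPM with E2 and 10.8 CPM with vehicle on the panel, a log2 ratio of 1.20 (0.35 to 2.14) against 1.54 in other cells. EGR3, an early growth response factor, stood at 281 and 144 CPM, and WNT4, a signalling ligand that lobular lines are known to need, at 208 and 117 CPM. IGFBP4, which binds insulin-like growth factors, stood at 210 and 93.9 CPM in all-gene rows. ZNF703, a luminal transcriptional regulator, stood at 8072 and 5328 CPM on the panel.

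Further genes were high with E2 outside that list. KRT8, a luminal keratin, stood at 1536 CPM with E2 and 685 CPM with vehicle in cluster 1, a log2 ratio of 1.16 (1.02 to 1.31) against 0.78 in other cells. TFAP2C, a transcription factor of luminal breast cells, stood at 162 and 60.7 CPM, for a log2 ratio of 1.42 (0.93 to 1.94). PPM1K, a mitochondrial phosphatase of branched-chain amino acid breakdown, stood at 81.9 and 21.7 CPM, for a log2 ratio of 1.92 (1.12 to 2.81), and ALDH3B2, an aldehyde dehydrogenase, at 146 and 56.4 CPM. In other cells PPM1K had 0.81 and ALDH3B2 0.31. HSPA5, the main chaperone of the endoplasmic reticulum, stood at 272 and 143 CPM in cluster 1, and HSP90B1, its partner in the same compartment, had a log2 ratio of 0.64 on the panel. Genes of ribosome biogenesis had a median of 0.38 in cluster 1 and 0.45 in other cells, with 3 of 18 at least 1.5-fold higher. NME1, a nucleoside diphosphate kinase, stood at 236 and 107 CPM.

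Estrogen-repressed genes were lower with E2 inside cluster 1, mainly on the panel. TXNIP, which blocks glucose uptake and binds thioredoxin, stood at 618 CPM with E2 and 2079 CPM with vehicle on the panel, a log2 ratio of -1.75 (-1.85 to -1.65) against -2.08 in other cells. IL1R1, an interleukin receptor, stood at 290 and 770 CPM, BTG2, an antiproliferative gene, at 205 and 518 CPM, and ERBB3, a receptor tyrosine kinase, at 1262 and 2380 CPM. FOXO1, a transcription factor of growth arrest, had a log2 ratio of -1.42. On the panel, 9 of 12 estrogen-repressed genes were at least 1.5-fold lower in cluster 1 and 1 was higher, with a median of -0.80 against -1.12 in other cells, and 6 of 11 growth restraint genes were lower and 1 higher, with a median of -0.63 against -1.08. In all-gene rows, 3 of 6 estrogen-repressed and 2 of 9 growth restraint genes were lower, with medians of -0.59 and -0.33. Both lists share several genes. FOS, an immediate-early transcription factor, stood at 32.2 and 114 CPM in all-gene rows, a log2 ratio of -1.82 (-2.43 to -1.24), and had -1.15 on the panel. SLC12A2, an ion cotransporter, stood at 95.8 and 270 CPM.

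MDC1 and PARP genes, which the study's title names, differed by less than 1.5-fold between E2 and vehicle inside cluster 1. PARP1, the polymerase that marks DNA breaks with poly(ADP-ribose), stood at 5398 CPM with E2 and 4938 CPM with vehicle in cluster 1 on the panel, against 4922 and 3941 CPM in other cells. PARP2, its close relative, stood at 613 and 619 CPM in cluster 1 against 543 and 435 CPM. MDC1, the mediator that binds marked histones at DNA breaks, stood at 788 and 795 CPM in cluster 1 against 850 and 876 CPM. The log2 ratios of E2 over vehicle inside cluster 1 were 0.13 (0.08 to 0.17) for PARP1, -0.01 (-0.14 to 0.11) for PARP2 and -0.01 (-0.13 to 0.10) for MDC1. ESR1, the estrogen receptor, stood at 3362 and 3861 CPM in cluster 1, a log2 ratio of -0.20 (-0.25 to -0.15), against 0.01 in other cells.

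Some genes moved in opposite directions inside and outside cluster 1. RAD51AP1, a recombination factor, stood at 70.6 CPM with E2 and 137 CPM with vehicle in cluster 1, against 79.3 and 63.8 CPM in other cells. BRIP1, a helicase of the recombination and Fanconi pathways, stood at 43.6 and 85.3 CPM against 28.6 and 23.0 CPM, and on the panel its E2 over vehicle log2 ratio was -0.37 inside and 0.32 outside. ORC6, a subunit of the origin recognition complex, stood at 53.1 and 96.8 CPM against 46.8 and 38.6 CPM. With vehicle each of them was higher in cluster 1 than in other cells, while with E2 the levels of RAD51AP1 were close, at 70.6 and 79.3 CPM. On the panel, ITGA2, an integrin, stood at 94.8 and 69.3 CPM in cluster 1 against 73.6 and 105 CPM in other cells. LIFR, a cytokine receptor, stood at 61.4 and 37.5 CPM against 65.4 and 71.9 CPM, so its levels outside the cluster were close. For RAD51AP1 and ORC6 in all-gene rows and ITGA2 on the panel, the intervals excluded equal levels both inside and outside the cluster. DDIT4, a stress gene that restrains mTOR and was chosen after its values were seen, stood at 23.9 and 15.9 CPM in cluster 1 against 47.9 and 101 CPM in other cells, so it was lower in cluster 1 in both treatments and by most with vehicle.

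In the repair rows, cells of cluster 1 had larger shares of Abasic and Uracil1 UMIs at the positions where these hairpins are most often counted. Hairpins are called by their names in the file, and the sequences of the hairpins were not used here. A break at an abasic site is made in cells mainly by APEX1, uracil is removed first by a glycosylase such as UNG, and a ribonucleotide in DNA is cut by RNase H2. For the Abasic and Uracil1 hairpins the position with most UMIs was 46 and 45, and the measure used is the share of a hairpin's UMIs at positions 44 to 50. For the other hairpins the most frequent position lay mainly outside this window, at 20 for Uracil2, 6 for GU and 9 for riboG in cluster 1, so their window share is not shown to count breaks at the lesion.

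The Abasic window share was 65.5% with E2 and 69.1% with vehicle in cluster 1, against 55.5% and 63.1% in other cells. The differences were 10.0 (9.60 to 10.5) and 6.04 (5.52 to 6.55) percentage points. The Uracil1 share was 32.5% and 35.4% in cluster 1, against 26.7% and 26.4% in other cells, with differences of 5.84 (5.49 to 6.20) and 8.997 (8.53 to 9.46) points. Cluster 1 had the highest Uracil1 share of the 8 clusters in both treatments, followed by cluster 0 with E2 at 29.1% and by cluster 5 with vehicle at 30.9%. The Abasic share was not highest in cluster 1, since cluster 2 reached 68.8% and 74.0%. The Uracil2 share was 17.5% and 19.9% in cluster 1 against 14.8% and 14.7%, the Uracil3 share 13.3% and 15.4% against 11.0% and 9.60%, and the GU share 8.88% and 9.29% against 8.35% and 6.93%. Each of these hairpins was therefore above other cells in both treatments. The riboG share was 4.97% and 4.94% in cluster 1 against 6.30% and 6.28%, lower by the same 1.34 points in both, and clusters 2 and 5 were lower still, at 4.03% and 3.42% and at 4.52% and 4.69%. The hairpins CI, TI and Normal had between 0.08% and 0.26% of their UMIs in the window.

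**Figure D5:**
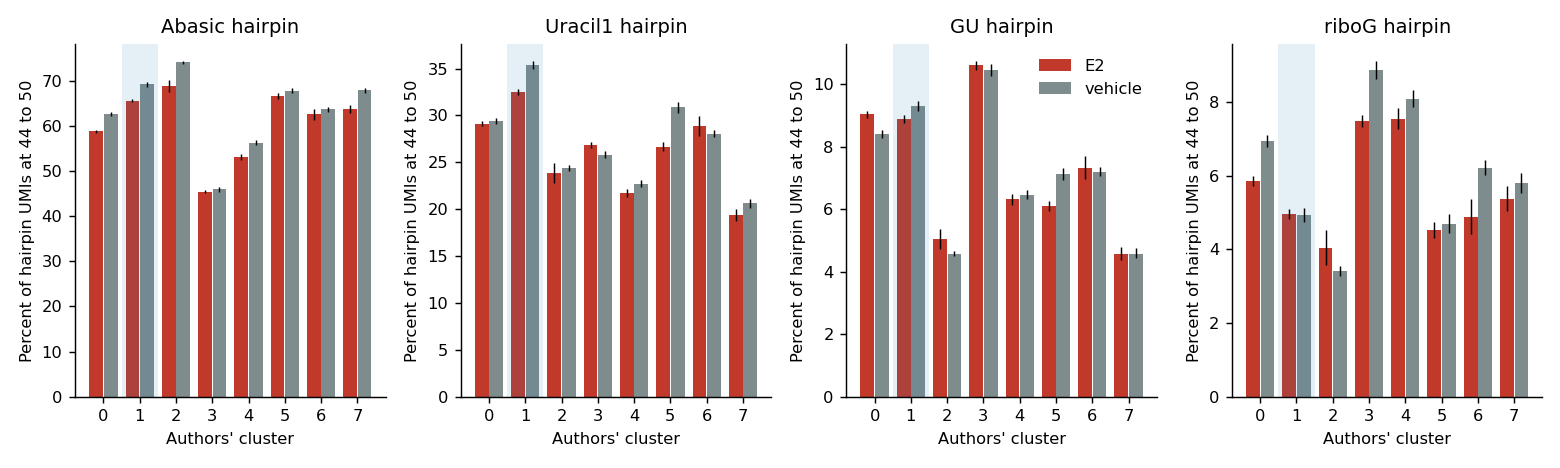
Percent of a hairpin's UMIs at positions 44 to 50 for 4 hairpins in each of the authors' clusters, with E2 (left bar of each pair) and vehicle (right bar); lines are exact binomial 95% intervals and cluster 1 is shaded. The Uracil1 share was highest in cluster 1 in both treatments, at 32.5% and 35.4%, while the Abasic share was higher in cluster 2 and, with E2, in cluster 5.

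The spread between cells was wide beside these differences. Over cells with at least 20 UMIs of the hairpin, the Abasic share averaged 68.1% ± 12.9 (SD, 895 cells) with E2 and 70.8% ± 12.9 (586 cells) with vehicle in cluster 1, against 58.8% ± 15.2 and 66.4% ± 15.2 in other cells. These SDs are over cells of 1 library and not over replicates. Among S cells only, cluster 1 was above other S cells by 11.1 and 7.75 points for Abasic and by 2.95 and 5.21 points for Uracil1, so the Uracil1 difference was smaller between S cells than between all cells. For GU the differences among S cells were -1.76 points with E2 and 0.24 with vehicle, and for Uracil3 with E2 the difference was -0.79 (-2.04 to 0.47). Among G1 cells, cluster 1 was above other cells by 9.87 points with E2 but by 1.41 (0.39 to 2.43) with vehicle for Abasic, and by 2.89 and 6.07 points for Uracil1. With E2, G1 cells of cluster 1 differed from other G1 cells by 0.34 (-0.17 to 0.85) points for Uracil2 and by 0.023 (-0.19 to 0.24) for GU. The riboG difference among G1 cells was -0.99 with E2 and 0.035 (-0.39 to 0.46) with vehicle. The Abasic and Uracil1 shares were thus above other cells of the same phase in S and in G1 in both treatments, by amounts that varied. For Uracil2, Uracil3, GU and riboG, the difference was absent or had the other direction in some phases and treatments. Position by position, 298 positions had at least 100 UMIs in cluster 1 in each treatment, and 0 were at least 1.5-fold higher and 6 at least 1.5-fold lower than in other cells in both treatments, all 6 outside the window.

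Inside cluster 1, E2 cells had lower window shares than vehicle cells for Abasic, the Uracil hairpins and GU, and about the same share for riboG. The E2 minus vehicle difference was -3.58 (-4.19 to -2.98) points for Abasic, against -7.58 in other cells. It was -2.87 (-3.41 to -2.33) for Uracil1, -2.40 for Uracil2, -2.10 for Uracil3 and -0.41 for GU, and 0.03 (-0.21 to 0.27) for riboG. Within phases some of these differences were not detectable. Among G1 cells of cluster 1, the Abasic shares were 68.30% with E2 and 68.30% with vehicle, a difference of 0.0065 (-1.16 to 1.17) points, and among S cells it was -5.16. For GU the difference was -0.051 (-0.31 to 0.21) among S cells and 0.46 (-0.48 to 1.40) among G2M cells. For Uracil1 it was -1.95 among S cells, -3.65 among G1 cells and -0.62 (-2.98 to 1.73) among G2M cells. In other cells of all phases together, Uracil1 differed by 0.28 and GU by 1.41 points, both above 0. Among other G1 cells, Uracil1 differed by -0.47 (-0.84 to -0.098) points. At single positions, 0 of the 298 differed by 1.5-fold between E2 and vehicle in cluster 1. Median repair UMIs per cell were 1151 with E2 and 895 with vehicle in cluster 1, and the part of this depth difference was not tested.

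The Uracil1 share and the UNG message were both highest in cluster 1. Over the 8 clusters, Pearson's r between UNG CPM and the Uracil1 share was 0.64 with E2 and 0.83 with vehicle, and 0.32 and 0.75 without cluster 1. For the RNase H2 subunit genes and riboG it was 0.13 and 0.07, and 0.22 and 0.47 without cluster 1. For APEX1 and Abasic it was 0.41 and -0.20, and 0.42 and -0.22 without cluster 1, while Spearman's rho was 0.64 and -0.071. These gene and hairpin pairs were chosen after the values were seen, and the clusters of 1 treatment share 1 library, so the coefficients are descriptions of 8 points.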

How the data were processed

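The authors deposited 1 matrix for both treatments and a table of cell annotation. Per the submitters' processing notes, the build was hg38 and the tools included UMI-tools 0.5.3, SAMtools, Bowtie2 2.3.2, cutadapt 1.8.3 and Cell Ranger 3.0.2. The origin of the all-gene rows, the inputs of the clustering and the making of the phase calls are not given in the sources used here. From its values, the deposited matrix holds natural log values, the natural log of 1 plus 10000 times a row's count over the cell's total for its block. Whole UMI counts were recovered from these deposited values, 100% of values above 0 coming out whole within 0.001, and 100% of cell sums equalled the totals that the authors deposited as counts. The deposited annotation also gives a percent of mitochondrial counts and several scores, and the authors' score columns were not compared here.

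Within each treatment, the UMIs of all cells in a set were added up and scaled to CPM, with Python 3.11.15, numpy 2.4.6, pandas 2.3.3 and scipy 1.17.1. Ratios have exact conditional intervals, CPM exact Poisson intervals and shares Clopper-Pearson intervals, and PCR or sampling of cells is not covered by them. The differences of 2 log2 ratios or shares have normal intervals from the counts. Summing gives deep cells more weight. The ratio and interval code was tested on simulated data. No caller of doublets was run and all deposited cells were used, while doublets were not assessed otherwise. Members, gene lists and the repair window were chosen with earlier results of these data known. Named genes were the 12 highest and 12 lowest ratios in each block, the 6 largest differences each way, up to 4 members of each list and MDC1, ESR1, PGR, PARP1 and PARP2, of which the text gives a part. In all-gene rows, some lists had 0 members at least 1.5-fold higher in cluster 1 in both treatments, where 1.7% of all genes were. They included p53 targets, immediate-early and stress, hypoxia and glycolysis, sterol synthesis, luminal and growth factor genes.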

Additional observations from a re-analysis of the deposited data

Results flagged for a closer look

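Some values moved in opposite directions with E2 inside cluster 1 and in other cells, and with 1 library per treatment none of these differences was tested. In all-gene rows, the log2 ratio of E2 over vehicle was -0.96 in cluster 1 and 0.32 in other cells for RAD51AP1, a recombination factor, and -0.87 and 0.28 for ORC6, an origin recognition subunit. On the panel it was -0.75 in cluster 1 and 0.41 in other cells for FGF22, a growth factor, -0.49 and 0.56 for GRIA3, a glutamate receptor subunit, -0.21 and 0.63 for POLE2, a subunit of the leading strand polymerase, and -0.10 and 0.73 for E2F1. The medians over all panel genes were -0.12 in cluster 1 and -0.09 in other cells. E2F1 in cluster 1 was thus at the level of the panel as a whole and is not read as lower with E2 there. ITGA2, an integrin, had 0.45 in cluster 1 and -0.51 in other cells. In the repair rows, the E2 minus vehicle difference of the window share was -2.87 percentage points in cluster 1 and 0.28 in other cells for Uracil1, -2.10 and 1.40 for Uracil3, and -0.41 and 1.41 for GU. These values are over all phases together. Among other G1 cells Uracil1 differed by -0.47 (-0.84 to -0.098), the direction of cluster 1, and in other S and G2M cells no difference was detectable. For Uracil3 no difference was detectable inside cluster 1 in any single phase, and 50 E2 and 5 vehicle cells there had at least 20 UMIs of it. For GU the directions stayed opposite among G1 cells, at -0.44 and 1.03.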

How the results depend on the processing

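With 1 library per treatment, no result could be set against replicates. No paired analysis was possible because each treatment has 1 library per assay. Of 96 named genes, 555 of 558 values under other settings kept their direction, and the other 3 reversed within G1 cells: the log2 ratios of cluster 1 over other cells were 0.95 for PLK1, 0.95 for CDCA3 and 0.67 for CCNA2 on the panel. PLK1 had 0 UMIs in the E2 cells of cluster 1, so its value comes from the floor of 3 UMIs and shows no higher level. The CDCA3 value is equal to it and may rest on the same floor. In all-gene rows, a size factor from the median of ratios and leaving out the 10 most abundant genes moved no list median or count by more than its tolerance. The list medians and counts of panel rows were not tried under these settings. A count minimum of 50 gave 155 genes higher and 329 lower in cluster 1, and 293 higher and 288 lower with E2 inside it. Panel rows gave 25, 31, 12 and 51, with G2/M medians of -1.79 with E2 and -1.71 with vehicle. Within S cells, 0 genes were higher and 9 lower in cluster 1 and 53 were lower with E2, with S phase medians of 0.15 and 0.13 and G2/M medians of -0.39 and -0.33. Within G1 cells the 4 counts were 11, 13, 54 and 37, the G2/M medians were -0.018 with E2 and 0.53 with vehicle, which reversed, and that of E2 over vehicle was 0.082. Within G2M cells, 4 genes were higher and 3 lower with E2, the S phase median with vehicle was 0.53 and the G2/M median with E2 was -0.66. Equal weight to the 3 phases gave 311 genes higher and 267 lower with E2 and reversed the S phase median of E2 over vehicle to 0.048, and equal weight per cell gave -0.23. Without clusters 0 and 4, a comparison chosen after seeing the data, 24 genes were lower in cluster 1, the S phase median with vehicle was 1.75, and the G2/M medians were -0.37 with E2 and 0.055 with vehicle, which reversed. Cells with at least 800 all-gene UMIs put 13.2% of vehicle cells in cluster 1. The cause of these moves was not tested. For the repair windows, cluster 1 minus other cells with E2 and with vehicle is given in points. At positions 45 and 46 it was 10.8 and 6.57 for Abasic, 6.25 and 8.38 for Uracil1, and -0.79 and -0.92 for riboG. As means of per-cell shares it was 9.29 and 4.35, 5.39 and 8.35, and -1.03 and -1.001, and E2 minus vehicle inside cluster 1 was -2.69 for Abasic. Within S cells it was 11.1 and 7.75 for Abasic and 2.95 and 5.21 for Uracil1, and E2 minus vehicle was -5.16 and -1.95. Without the 5% of cells with most UMIs it was 8.18 and 4.12 for Abasic and -1.13 and -1.06 for riboG. Without cluster 7, chosen after seeing the data, it was 10.5 for Abasic and 5.44 for Uracil1 with E2. Depth limits genes with few UMIs in cluster 1, such as PLK1 and PGR, and sets with few cells, such as the G1 cells of clusters 0 and 2 with E2.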
